A study of Caenorhabditis elegans with 6 samples.

Results

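The voltage- and calcium-gated potassium channel genes of Caenorhabditis elegans were described in RIS, an interneuron that releases GABA and neuropeptides and whose activity brings on sleep-like quiescence. They were chosen as 10 gene names, and all 10 were found among the 12072 genes of the authors' deposited table. The study lists 3 libraries of RIS neurons sorted from dissociated L1 larvae and 3 libraries of whole L1 larvae. The RIS larvae carried the mKate reporter driven by the flp-11 promoter (strain RIS::mKate), and the whole larvae were of the laboratory strain N2. Both groups were synchronized L1 animals, hatched overnight in M9 buffer from eggs prepared with hypochlorite. The RIS cells were dissociated, sorted and collected in Trizol, whereas the whole larvae were frozen over liquid nitrogen, so the cell type and the way of preparing it cannot be told apart. The whole larvae also contain RIS. The sorting notes of the labels name another neuron, AVK, with mCherry as its marker, although titles, source and cell type name RIS.

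Potassium channels let potassium leave the cell and so bring the membrane back toward rest. Voltage-gated subunits of the Kv, EAG, ERG and KCNQ families open on depolarization and differ in how fast they open and close, which shapes the end of an action potential and the readiness for the next. SLO channels have a large conductance. SLO-1 opens on calcium and voltage together, and SLO-2 is gated by calcium and chloride in this species. In neurons they limit calcium entry and transmitter release.

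Of the 10 channel genes, 2 rose in RIS, 2 fell and 6 were not called. A call means a false discovery rate (FDR), the Benjamini-Hochberg adjusted p of the authors' deposited table, below 0.05. Over all genes 36.2% were called, 9.84% as higher and 26.4% as lower. At an FDR below 0.01 there was 1 channel gene higher and 1 lower, beside 4.9% and 14.2% of all genes. At an unadjusted p below 0.05 there were 4 higher and 2 lower, beside 13.3% and 32.8%. Differences are given as the log2 ratio of RIS to whole larvae, positive where RIS is higher. The median log2 ratio of the 10 genes was 1.73, against −0.78 for all genes. The median of the 10 does not depend on the fitted value of egl-36, the lowest of them. The typical gene lies below the zero of the table. Each channel's ratio is therefore also given against the typical gene, that is, after subtracting the median of all genes. Whether that median reflects normalization or truly lower RNA of most genes in RIS was not tested. It was subtracted as a constant without error, so calls by this second measure hold only relative to it. The standard error behind each interval and the FDR of this second measure were computed here from the deposited F and p. By that measure 5 channel genes were higher and 2 lower, beside 16.6% of all genes called higher and 20.3% called lower. No channel gene changed sign between the measures. Whether the libraries of a group came from separate cultures is not stated, so the p-values cover the spread among these libraries alone, and that spread may be technical. Fewer cells that express a gene and less RNA of it per cell cannot be told apart.

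**Figure D1:**
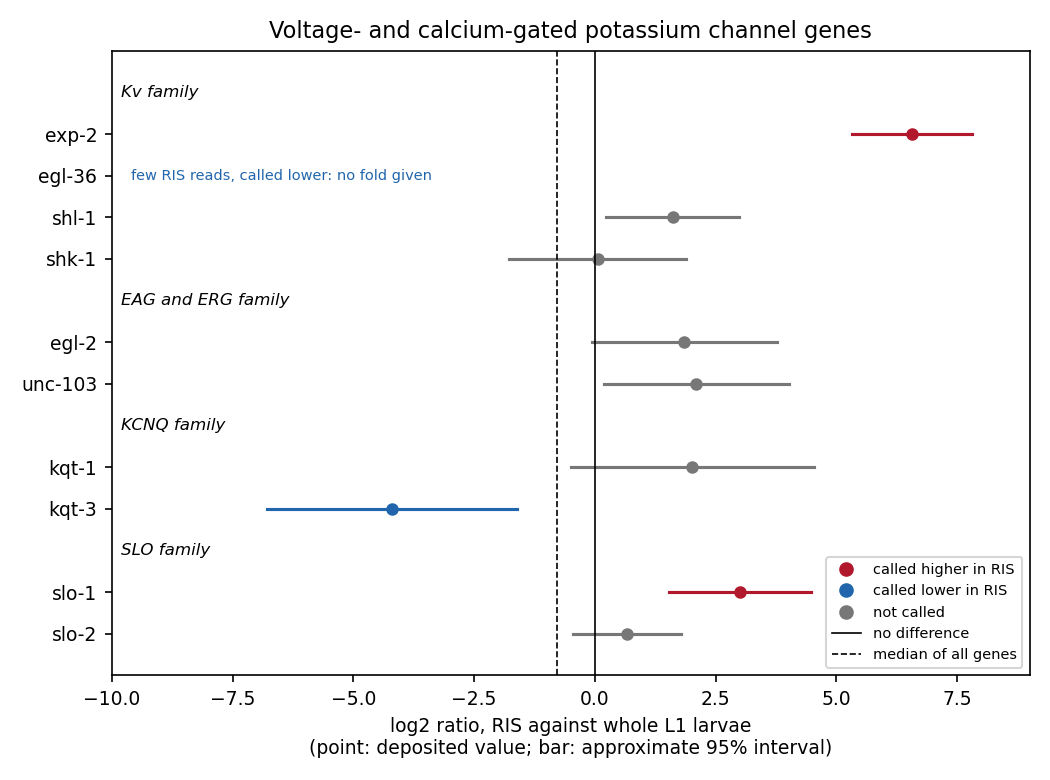
Log2 ratios of the 10 channel genes, RIS against whole L1 larvae, grouped by family, with approximate 95% intervals. The interval of exp-2 lies apart to the right of the others, slo-1 is the other gene called higher, kqt-3 is called lower, and egl-36, also called lower, has no fold because it has few RIS reads.

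The deposited table has no values per library, so the level and the spread in each library are unknown, and so is the depth of each. As a check of the sort, all 7 RIS markers were higher, with a median log2 ratio of 7.22. They were led by flp-11, whose promoter drove the sort, at 9.75, with aptf-1 at 8.59 and ser-4 at 8.39 in the authors' deposited table. All 10 genes used across the nervous system were higher as well, with a median of 3.72. Of 4 AVK genes 0 were called in the authors' edgeR-format test, and 1 was lower at an unadjusted p below 0.05. Against the typical gene 2 of the 4 AVK genes were called higher, flp-1 at 1.44 (FDR = 0.0452) and unc-42 at 2.05 (FDR = 0.0414). All 6 pharyngeal markers were lower (median −5.04). So were 4 of 6 body wall muscle, 5 of 6 intestinal, 4 of 5 hypodermal and 5 of 6 ciliated sensory neuron markers. None of these 29 genes was called higher as deposited, but the muscle gene unc-54 was higher at an unadjusted p below 0.05. Against the typical gene unc-54 was called higher and 3 in place of 5 intestinal markers stayed lower. The counts of lower markers in the other 4 groups were the same.

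Among the Kv channels exp-2 rose most. EXP-2 is a Kv-type subunit best known from pharyngeal muscle, where it ends the action potential. In RIS its log2 ratio was 6.56 in the authors' deposited table, or 94.6-fold (approximate 95% interval 5.32 to 7.81, FDR = 0.00143), at a mean CPM (read counts scaled to a common library size) of 472 over both groups. Only 59 of the 12072 genes had a higher fold change. The pharyngeal markers, of which all 6 fell, moved the other way. Which cells the exp-2 reads came from was not tested. Against the typical gene the log2 ratio of exp-2 was 7.34 (FDR = 0.000672).

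The other Kv genes comprised 1 that fell to few RIS reads and 2 that were not called. SHL-1 is the Shal-type channel, which carries a fast, inactivating current in muscle and neurons. In the authors' deposited table shl-1 had a log2 ratio of 1.61 (interval 0.24 to 2.98, unadjusted p = 0.0278, FDR = 0.0693). Against the typical gene it was called higher, at 2.39 (FDR = 0.0187). SHK-1 is the Shaker-type delayed rectifier. The authors' deposited table listed shk-1 at 0.06 (interval −1.78 to 1.89, FDR = 0.963). EGL-36 is the Shaw-type channel, known from mutants that fail to lay eggs. It fell to few RIS reads, with an FDR of 0.00708 and a mean of 1.76 CPM in the authors' deposited table. No fold is given for it, because a fold against a handful of reads depends on a prior count that is not stated.

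The EAG and ERG channels had similar values and neither was called in the authors' edgeR-format test, although 1 of the 2 passed an unadjusted p of 0.05. EGL-2 is the EAG-type and UNC-103 the ERG-type channel, and both are known for holding down the excitability of muscles and neurons of the egg-laying, defecation and mating circuits. For unc-103 the authors' deposited table gave a log2 ratio of 2.10 (interval 0.18 to 4.02, unadjusted p = 0.0363, FDR = 0.0851). For egl-2 it was 1.85 (interval −0.07 to 3.77, FDR = 0.119) in the authors' deposited table. Both were called higher against the typical gene, unc-103 at 2.88 (FDR = 0.0306) and egl-2 at 2.63 (FDR = 0.0414). Both are low genes, with means of 4.73 CPM for unc-103 and 2.25 CPM for egl-2, against a median of 11.9 CPM for all genes.

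The KCNQ genes, whose channels give slow currents that steady the resting membrane, differed in sign. The gene kqt-3 fell by 4.20 on the log2 scale, or 18.3-fold (interval −6.78 to −1.61, FDR = 0.0229), in the authors' deposited table. It stayed lower against the typical gene, at −3.42 (FDR = 0.0469). Its paralog kqt-1 had a log2 ratio of 2.02 (interval −0.49 to 4.53, FDR = 0.186) in the authors' deposited table, so it was not called, and one of 2.79 (FDR = 0.0801) against the typical gene. The intervals of these genes do not overlap, but the difference between them was not tested.

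Of the SLO channels slo-1 rose and slo-2 was not called. The BK channel gene slo-1 had, in the authors' deposited table, a log2 ratio of 3.01, or 8.05-fold (interval 1.54 to 4.48, FDR = 0.0101). That lies below the median of 3.72 for the 10 genes used across the nervous system, all of them higher. The value for slo-2 was 0.66 (interval −0.46 to 1.78, FDR = 0.321) in the authors' deposited table. Against the typical gene slo-1 was at 3.79 (FDR = 0.00726) and slo-2 at 1.44 (FDR = 0.0511), just outside the threshold. The intervals of slo-1 and slo-2 overlap.

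Ordered by fold change, exp-2 was followed by slo-1, unc-103, kqt-1, egl-2, shl-1, slo-2, shk-1 and kqt-3. In this order only the intervals of exp-2 and slo-1 did not overlap between neighbours, and those of all other neighbours did. Differences between genes were not tested. The gene egl-36 has no place in it.

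**Figure D2:**
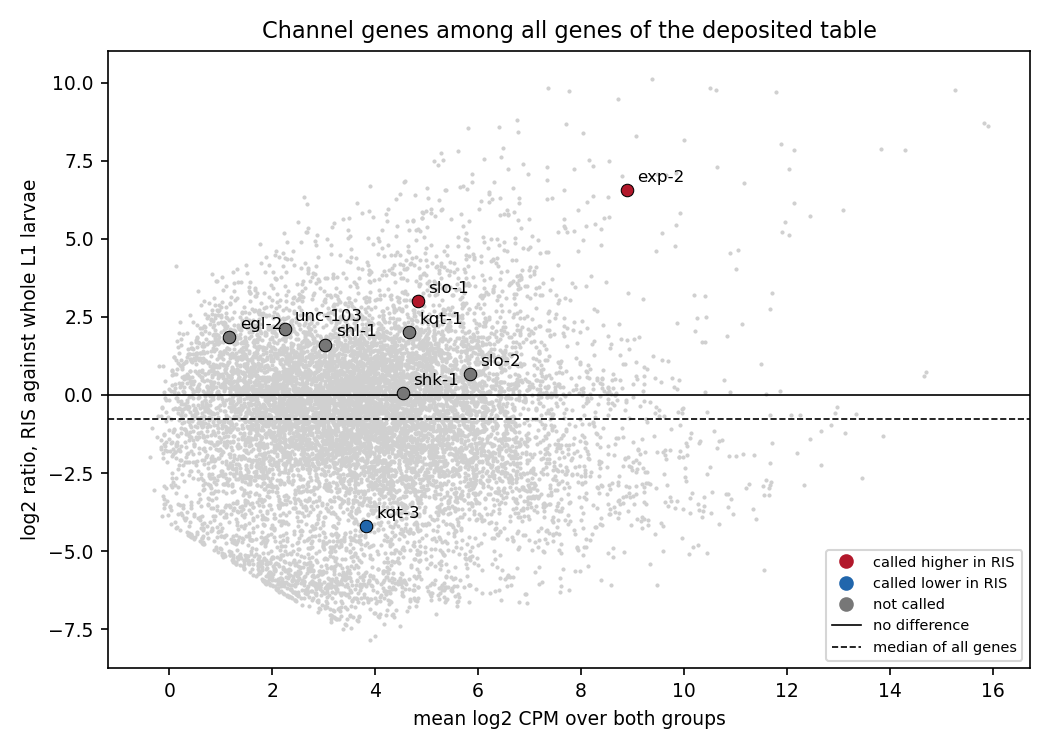
Log2 ratio against mean log2 CPM for all genes of the authors' deposited table (grey), without the 860 genes at few RIS reads, with 9 of the channel genes marked. Of these, exp-2 is the highest in both mean level and fold change, and kqt-3 is the only marked gene below the dashed median of all genes.

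Approximate levels in each group were computed from the fold change and the mean CPM of each gene, and divided by exon length so that genes can be compared. They assume 3 equally weighted libraries in each group. That number is in doubt for RIS, since the 170 genes without RIS reads had lost 1 denominator degree of freedom in the authors' test. A group without reads loses 1 where it holds 2 libraries and 2 where it holds 3. With 2 RIS libraries the RIS level of exp-2 would be 336 CPM per kb in place of 270, and the order of the channels in RIS stays as below. These levels carry no error, because the table has none per group.

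On this scale exp-2 stood far above the other channels in RIS. Its level of 270 CPM per kb in RIS, against 2.85 in whole larvae, ranked 268 of 12051 genes in RIS and 9468 in whole larvae. It made up 80.6% of the summed RIS level of the 9 channel genes with a fold, and was 16.6 times the next, or 19.7 times with 2 RIS libraries. The next were slo-2 at 16.3 CPM per kb in RIS and 10.3 in whole larvae, kqt-1 at 14.9 and 3.68, slo-1 at 12.8 and 1.59, and shk-1 at 11.4 and 10.9. These 4 lie close together in RIS. The values for exp-2 rest on 3463 bases of exon within its deposited span, against 4947 in its full annotated model. Its level, share and ratios therefore depend on the exon length taken.

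Further down the order of RIS levels came shl-1 at 6.18 CPM per kb, unc-103 at 1.61 and egl-2 at 1.06, each above its level in whole larvae of 2.03, 0.38 and 0.29. The level of kqt-3 was 0.68 CPM per kb in RIS and 12.4 in whole larvae. Thus whole larvae held kqt-3, shk-1 and slo-2 at the highest levels of the 10 genes, at 10.3 to 12.4 CPM per kb, an order that changes among them with 2 RIS libraries. The level of slo-2 was 6.45 times that of slo-1 in whole larvae, while in RIS slo-1 reached 0.789 times slo-2. Both ratios assume 3 RIS libraries. With 2 RIS libraries slo-2 and slo-1 would be at 10.8 and 1.89 CPM per kb in whole larvae. In RIS they would then be at 17.0 and 15.2. The median gene had 5.55 CPM per kb in RIS and 7.99 in whole larvae.

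**Figure D3:**
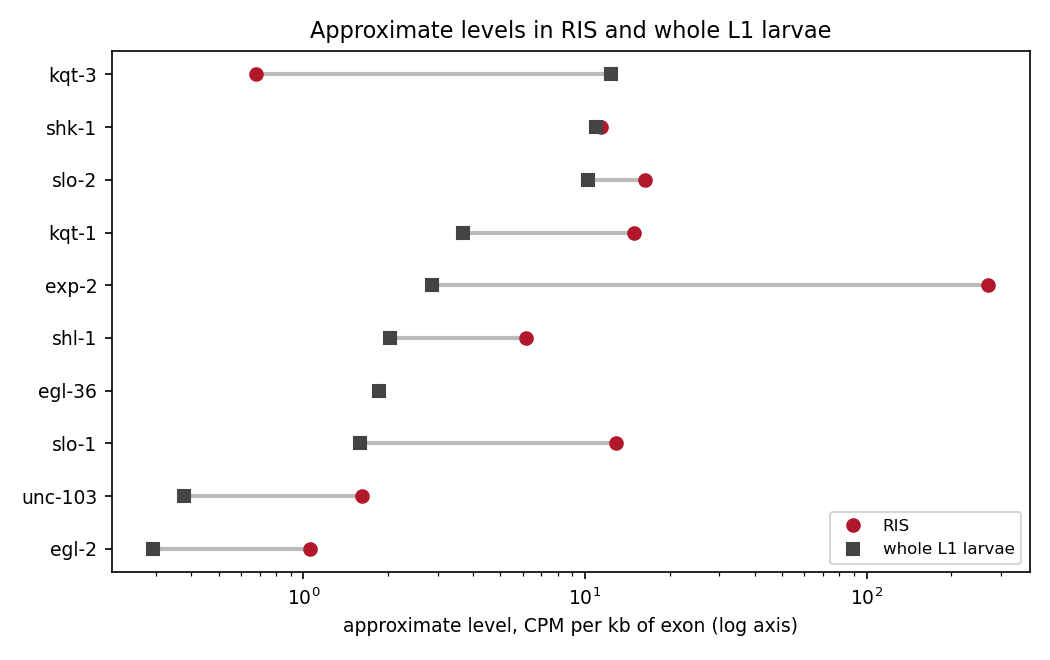
Approximate level of each channel gene in CPM per kb of exon on a log axis, in RIS (circles) and whole L1 larvae (squares). The RIS level of exp-2, 270 CPM per kb, lies far to the right of all others, kqt-3 lies at 0.68 in RIS against 12.4 in whole larvae, and egl-36 has a square only because its RIS level rests on few reads.

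Other potassium channel genes and genes whose products act on these channels were more often higher than lower. Of 29 such genes 26 were measured, 3 of them found by gene ID, while kvs-3, mps-3 and mps-4 were not found by symbol or gene ID. By the authors' deposited FDR, 11 (42.3%) were higher, beside 9.84% of all genes, and 3 (11.5%) were lower, beside 26.4%. Against the typical gene the counts were again 11 and 3. Their median log2 ratio was 0.69. All 10 genes used across the nervous system were higher, with a median of 3.72. The list of 29 was chosen with earlier results of these data known.

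**Figure D4:**
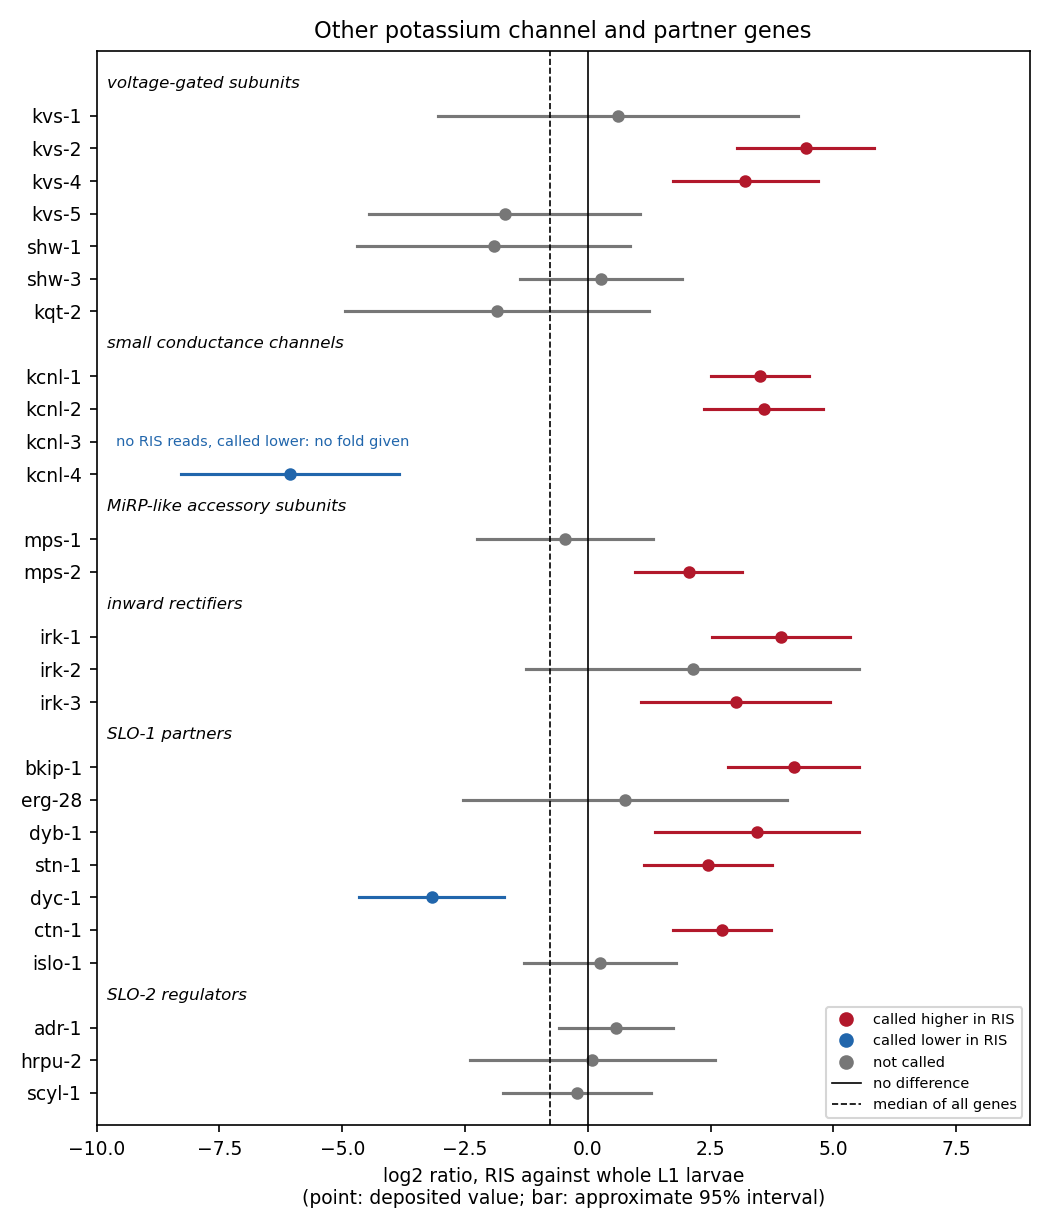
Log2 ratios of 26 other potassium channel and partner genes, RIS against whole L1 larvae, by subgroup, with approximate 95% intervals. Among the SLO-1 partners 4 are called higher and 1 lower, the small conductance channels are called 2 higher and 2 lower, and kcnl-3 has no RIS reads and no fold.

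Of 7 genes that act on SLO-1, 4 were called higher and 1 lower, beside 9.84% and 26.4% of all genes and 10 of 10 genes used across the nervous system higher. The uncalled partners were erg-28 at 0.76 and islo-1 at 0.25 in the authors' deposited table. BKIP-1 is an auxiliary subunit that helps SLO-1 reach the cell surface, and bkip-1 rose by a log2 ratio of 4.20 (interval 2.86 to 5.53, FDR = 0.00427) in the authors' deposited table. The catulin CTN-1, the dystrobrevin DYB-1 and the syntrophin STN-1 belong to the dystrophin-associated machinery that places SLO-1 in muscle. The authors' deposited table gave log2 ratios of 2.74 for ctn-1 (FDR = 0.00539), 3.45 for dyb-1 (FDR = 0.0212) and 2.45 for stn-1 (FDR = 0.0139). DYC-1, a CAPON-like protein linked to the same machinery, went the other way, and dyc-1 fell by 3.18 on the log2 scale (FDR = 0.00870) in the authors' deposited table. Of 6 body wall muscle markers 4 fell, as dyc-1 did and opposite to ctn-1, dyb-1 and stn-1. The muscle gene unc-54 was at 0.98 in the authors' deposited table and not called (FDR = 0.0913). Against the typical gene it was called higher, at 1.76 (FDR = 0.0139). Whether muscle RNA adds to the values of these genes was not tested. Of 3 genes known to regulate SLO-2 (adr-1, hrpu-2 and scyl-1), 0 were called in the authors' edgeR-format test, and 0 at an unadjusted p below 0.05.

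The calcium-gated channels of small conductance split in pairs. In the authors' deposited table kcnl-1 rose by a log2 ratio of 3.51 (interval 2.52 to 4.50, FDR = 0.00344) and kcnl-2 by 3.58 (interval 2.36 to 4.80, FDR = 0.00480). Their approximate RIS levels of 29.8 CPM per kb for kcnl-1 and 17.3 for kcnl-2 lay above the RIS level of each of the 9 channel genes with a fold, other than exp-2. By its degrees of freedom kcnl-3 had no RIS reads, and it was called lower in the authors' deposited table (FDR = 0.00714). The fall of kcnl-4 by 6.06 on the log2 scale (FDR = 0.00541) in the authors' deposited table lies not far above the position of few RIS reads, so its size is uncertain.

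Further voltage-gated subunits were higher or not called. The authors' deposited table gave log2 ratios of 4.43 for kvs-2 (FDR = 0.00425) and 3.21 for kvs-4 (FDR = 0.00843), both Kv-type subunits. The remaining subunits of that group were not called, with kvs-1 at 0.62, shw-3 at 0.28, kvs-5 at −1.69, kqt-2 at −1.84 and shw-1 at −1.91 in the authors' deposited table. At 50.0 CPM per kb, kvs-2 had the highest approximate RIS level of any voltage-gated subunit measured here after exp-2.

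Inward rectifiers, which pass current more readily into the cell than out of it, and accessory subunits had members higher and none lower. Of 3 inward rectifier genes irk-1 (3.93, FDR = 0.00517) and irk-3 (3.01, FDR = 0.0261) rose in log2 ratio, while irk-2 (2.13, FDR = 0.293) missed the threshold, all by the authors' deposited table. The accessory subunits of the MPS family are single-pass proteins that join voltage-gated channels. Of these, mps-2 rose by a log2 ratio of 2.06 (FDR = 0.0133) in the authors' deposited table. The value for mps-1 was −0.47 (FDR = 0.673) in the authors' deposited table, which turns to 0.31 against the typical gene.

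Where the channel genes lie bears on how their reads could be counted. The authors' deposited table names no genome build. By its coordinates exp-2 (WBGene00001374) spans V 6139836 to 6143548, slo-1 (WBGene00004830) spans V 18492265 to 18508201, kqt-3 (WBGene00002235) spans II 13703877 to 13712911 and egl-36 (WBGene00001202) spans X 10734326 to 10744355. In the WBcel235 annotation of Ensembl release 115, 2 of the 10 genes have the same span. There exp-2 begins 8436 bases and kqt-3 begins 7595 bases further upstream, with 11 and 4 annotated transcripts, and the deposited values do not tell isoforms apart. Exons of 7 of the 10 genes overlap those of another annotated gene, mostly by a few percent of their length or less. The longest overlap is that of kqt-1 with clec-266 on the opposite strand, over 371 bases or 13.7% of its exons. Whether reads were counted by strand is not given in the sources used here, so reads from such stretches could belong to either gene.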

How the data were processed

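The labels list 3 libraries of sorted RIS neurons and 3 of whole L1 larvae. How many entered the authors' comparison is not stated, and the degrees of freedom of genes without RIS reads are those of a fit with 2 RIS libraries. Per the labels' protocols, a SMART-Seq kit for low input gave the cDNA, and sequencing was on an Illumina HiSeq instrument. Not given in the sources used here are the aligner, the counting tool, the build and the annotation. The authors deposited 1 table of 12072 genes with no values per library. Its columns, per the file headers, are log2 values (the ratio of RIS to whole larvae, and the mean CPM), F score, p-value and FDR, in the format of edgeR's quasi-likelihood test. Depth, precision, filters and normalization per library are unknown.

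Genes were called at the deposited adjusted p below 0.05, which a Benjamini-Hochberg adjustment of the deposited p-value matched to within 3.44e-15. Approximate standard errors divide the size of the log2 ratio by the root of F, with the denominator degrees of freedom (6.76 for 11902 genes, 5.76 for 170) recovered from F and p. They gave the approximate 95% intervals and the test against the typical gene. Genes were taken to have few RIS reads where the sum of log2 ratio and log2 CPM lay within 4.64 of that of genes without RIS reads. This is the step from 0 to 3 reads in a library for an assumed prior count of 0.125, and 860 genes met it. Group levels were solved from mean and ratio. Exon lengths are those of WBcel235 (Ensembl release 115) within the deposited span, found for 12051 genes.

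The 10 genes were matched by symbol, the other lists by symbol and then by gene ID. All 10 channel genes are named, as are all called genes and all channel subunits of the other list. The 3 markers with the smallest adjusted p are named too. Added after their values were seen were erg-28, islo-1, flp-1, unc-42 and unc-54. The members and lists were chosen with earlier results of these data known. The calculations were tested on simulated data. Alternatives were a stricter threshold, a fold minimum, the median of all genes as zero, and 2 subsets of genes. The software was matplotlib 3.10.9, numpy 2.4.6, pandas 2.3.3, scipy 1.17.1 and statsmodels 0.14.6 under Python 3.11.15.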

Additional observations from a re-analysis of the deposited data

How the results depend on the processing

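At an adjusted p below 0.01, 1 channel gene was higher (exp-2) and 1 lower (egl-36), in place of 2 and 2, and 7 of the other potassium channel and partner genes were higher in place of 11. Relative to the median of all genes 5 channel genes were higher, with shl-1 (2.39), egl-2 (2.63) and unc-103 (2.88) added. Among genes at or above the median expression, where 4 of the 10 channel genes and 10 of the 26 others were not tested, 1 channel gene and 1 other gene were lower. In that subset 9 of the other genes were higher in place of 11. A fold minimum of 2 left all counts the same. Leaving out the genes that no RIS library held left 2 other genes lower in place of 3, and the remaining counts the same. No paired analysis was possible because values per library are not in the table, so leaving out each replicate was not run either. Approximate levels with 2 RIS libraries were added after the table was seen.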

Other observations

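Genes whose exons overlap those of a channel gene on the opposite strand had values of their own, chosen here after they were seen. R07A4.2 overlaps egl-36 by 1 base and had a log2 ratio of 6.57 (FDR = 0.00143) at a mean of 41.6 CPM in the authors' deposited table, where egl-36 fell to few RIS reads. The peroxin gene prx-12 overlaps slo-2 by 15 bases and fell by 4.70 on the log2 scale (FDR = 0.0349) in the authors' deposited table, where slo-2 was not called. For zipt-2.3, which overlaps kqt-3 by 26 bases, and aexr-2, which overlaps kqt-1 by 33 bases, the authors' deposited table gave −0.80 and 2.04, neither called.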
